A study of Mus musculus with 6 samples.

Results

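The Cyp3a genes encode cytochrome P450 enzymes of the subfamily that carries much of the oxidation of drugs, steroids and bile acids in the liver. The members are 8 genes listed by symbol, all of them found through their Ensembl identifiers among the 41388 identifiers of the count table: Cyp3a11, Cyp3a13, Cyp3a16, Cyp3a25, Cyp3a41a, Cyp3a41b, Cyp3a44 and Cyp3a59. A further symbol of the subfamily in the table, Cyp3a57, is not a member and is described only beside Cyp3a25 and Cyp3a59, which it resembles in sequence.

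Liver messenger RNA was sequenced from BALB/c mice with fibrosis induced by carbon tetrachloride (CCl4), a hepatotoxin activated in hepatocytes by P450 enzymes, given for 5 weeks. In the AL/NP group (3 libraries), the mice also received 2 injections per week, over the last 2 weeks, of nanoparticles loaded with the bisphosphonate alendronate at 4 mg/kg. The control group (3 libraries) had the same 5 weeks of CCl4 and is called untreated. No genetic change is stated for either group. The labels give no sex or age, repeat the same treatment text for every sample, and do not say whether controls were injected. They do not say that each library is a separate animal, so p-values measure the spread between these samples. No healthy liver and no particle without drug was among the samples, and the drug, its carrier and the injections cannot be told apart.

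P450 enzymes of the Cyp3a type sit in the endoplasmic reticulum of hepatocytes, hold a haem group, and take electrons from cytochrome P450 oxidoreductase (Por), in part through cytochrome b5 (Cyb5a). Transcription of Cyp3a genes is driven by the xenobiotic sensors PXR (Nr1i2) and CAR (Nr1i3), on a hepatocyte background set by Hnf4a, and several members differ between sexes under growth hormone control. Inflammation is known to lower hepatic P450 messenger RNA.

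Per library, 30554483 to 39838428 counts were recorded, and the 8 members took 0.0801% to 0.117% of them. Mitochondrially encoded genes (symbols starting with mt-) took 12.0% to 17.0% of counts in AL/NP libraries and 16.2% to 26.7% in controls. Nuclear copies of mitochondrial genes, which carry other symbols, are not in this share. The highest share was in control replicate 3, which also had the lowest scaling factor of the trimmed mean of M values (TMM) at 0.809. Summed levels of 16 hepatocyte markers were 66020 to 77100 TMM-scaled CPM (counts scaled to library size) in AL/NP livers and 77070 to 101400 CPM in controls. The groups overlapped, and control replicate 3 was the highest, against 78720 CPM in control replicate 1. Without Alb, the most abundant marker, the sums were 36460, 29200 and 30080 CPM in AL/NP livers. In control livers they were 34620, 32730 and 47830 CPM, which overlapped as well. Xist, transcribed from the inactive X chromosome, had between 6756 and 38925 counts in every library, against at most 5 counts for each of 4 genes of the Y chromosome. In whole-liver RNA, fewer hepatocytes and less RNA per hepatocyte cannot be told apart.

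Of the 8 members, 7 lie in one cluster of 677 kb on chromosome 5 (GENCODE M21, GRCm38), and Cyp3a13 lies 7515 kb from it. Cyp3a16 (chr5:145436309-145469723), Cyp3a41b (chr5:145558664-145584730), Cyp3a41a (chr5:145694049-145720136), Cyp3a44 (chr5:145773983-145805874), Cyp3a11 (chr5:145854426-145879964) and Cyp3a25 (chr5:145977194-146009618) are on the minus strand. Cyp3a59 (chr5:146079257-146113287) is on the plus strand, head to head with Cyp3a25, with 69639 bases between their starts. Cyp3a13 (chr5:137892932-137921619, minus strand) overlaps Gm15502, and no other member overlaps a gene of the count table. All are annotated as protein coding.

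By coding sequence the genes fall into sets that share at least 90% of bases. The first holds Cyp3a11, Cyp3a16, Cyp3a41a, Cyp3a41b and Cyp3a44, which are 92.4% to 99.9% identical. The second holds Cyp3a25, Cyp3a59 and the non-member Cyp3a57, which are 93.9% to 97.5% identical, with 97.5% between Cyp3a25 and Cyp3a59. Between these sets identity is 74.2% to 75.9%, and Cyp3a13 is 74.7% to 76.5% identical to the other genes.

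The 250 bases upstream of the RefSeq start (RefSeq, GRCm38.p6) are less alike between the sets than the coding sequences, at 46.6% to 53.1% identity. Cyp3a25 and Cyp3a59 share 94.8% of these bases, and each shares 88.9% or 90.1% with Cyp3a57. Those of Cyp3a25 and Cyp3a59 are printed because these members had lower levels in the AL/NP livers, with Cyp3a57 for its likeness and Cyp3a11 and Cyp3a44 for contrast. Sequences run 5′ to 3′ to the base before the start, and capitals mark the nuclear receptor half-site AGGTCA, or TGACCT where it is on the other strand.
Cyp3a25, chr5:146009619-146009868, minus strand: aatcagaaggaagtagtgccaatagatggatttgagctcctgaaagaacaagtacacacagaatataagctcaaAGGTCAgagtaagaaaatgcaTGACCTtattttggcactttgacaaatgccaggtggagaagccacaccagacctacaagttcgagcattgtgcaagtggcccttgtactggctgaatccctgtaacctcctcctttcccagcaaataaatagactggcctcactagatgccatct
Cyp3a59, chr5:146079008-146079257, plus strand: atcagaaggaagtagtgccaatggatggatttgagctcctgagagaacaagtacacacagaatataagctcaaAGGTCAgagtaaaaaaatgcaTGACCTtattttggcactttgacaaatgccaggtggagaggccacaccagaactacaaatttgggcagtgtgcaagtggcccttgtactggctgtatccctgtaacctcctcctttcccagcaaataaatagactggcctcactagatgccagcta
Cyp3a57, chr5:145345019-145345268, plus strand: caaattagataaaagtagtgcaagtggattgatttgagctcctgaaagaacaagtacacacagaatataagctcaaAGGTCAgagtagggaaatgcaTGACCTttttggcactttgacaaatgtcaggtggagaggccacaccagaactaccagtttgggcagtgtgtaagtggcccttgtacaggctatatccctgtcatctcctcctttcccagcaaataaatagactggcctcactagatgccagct
Cyp3a11, chr5:145879855-145880104, minus strand: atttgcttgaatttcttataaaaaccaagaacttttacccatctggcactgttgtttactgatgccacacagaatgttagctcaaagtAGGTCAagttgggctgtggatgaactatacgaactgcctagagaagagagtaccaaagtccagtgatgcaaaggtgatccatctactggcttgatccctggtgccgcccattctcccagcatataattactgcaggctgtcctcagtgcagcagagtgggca
Cyp3a44, chr5:145805875-145806124, minus strand: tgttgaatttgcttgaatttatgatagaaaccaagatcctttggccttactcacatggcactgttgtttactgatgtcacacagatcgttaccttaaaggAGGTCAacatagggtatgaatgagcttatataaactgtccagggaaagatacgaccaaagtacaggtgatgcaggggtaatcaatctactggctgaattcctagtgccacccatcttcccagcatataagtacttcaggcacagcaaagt

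AGGTCA was found 2 times in each of Cyp3a25, Cyp3a59 and Cyp3a57, once on each strand, starting at -176 and -155 in Cyp3a25 and at -177 and -156 in Cyp3a59. Cyp3a44 and Cyp3a11 hold it 1 time each, at -150 and -162, and these letters are not in the windows of Cyp3a13, Cyp3a16, Cyp3a41a and Cyp3a41b. Among 32851 mouse promoters of the same length, 14.0% hold it on either strand and 1.36% hold it at least 2 times. The letters ATAAATAG stand in Cyp3a25, Cyp3a59 and Cyp3a57 alone of the 9 genes, at -31, -32 and -31, and in 1.0% of all promoters. The half-site variant AGTTCA is in Cyp3a11, Cyp3a41a and Cyp3a41b, and in 11.8% of all promoters. ATATAAG is in 7 of the 9 genes, all but Cyp3a11 and Cyp3a13, and in 2.3% of all promoters. It stands at different places in the sets. It starts at -31 in Cyp3a16 and at -27 in Cyp3a41a, Cyp3a41b and Cyp3a44, which also hold it on the other strand, at -130 in Cyp3a16 and -126 in the others. In Cyp3a25, Cyp3a59 and Cyp3a57 it starts only at -188, -189 and -186. GATGCAA is in Cyp3a11 and in 2.19% of all promoters. All 5 motifs, searched on both strands, were chosen after the sequences had been seen, and a match is a description of the letters, not evidence of binding.

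**Figure D1:**
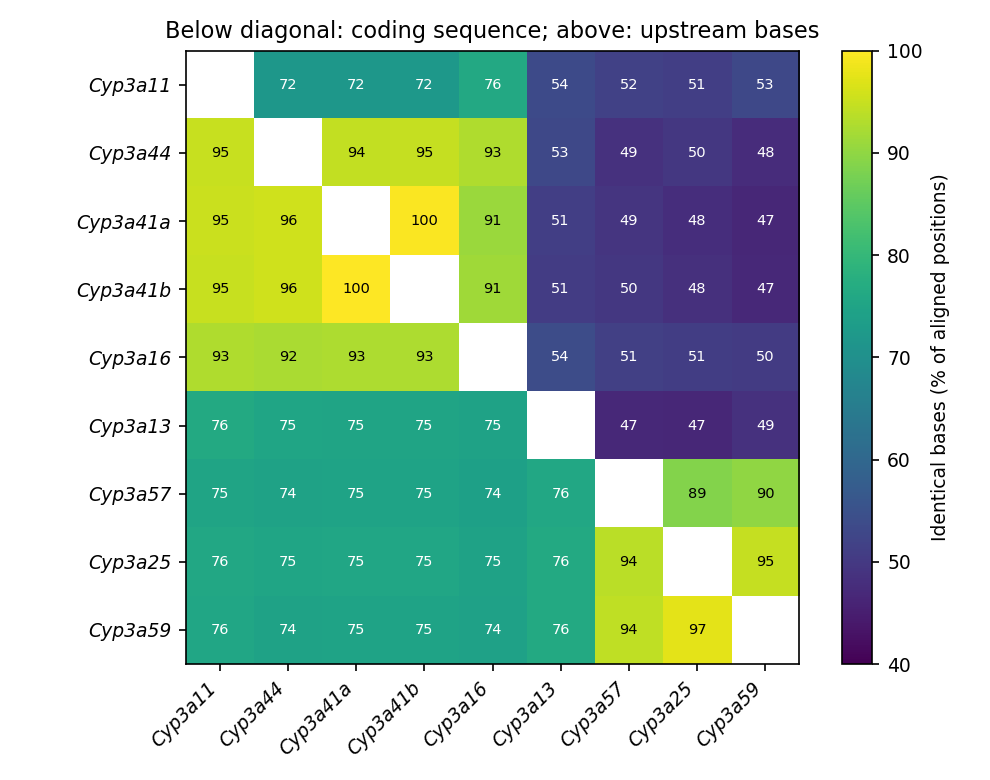
Percentage of identical bases between Cyp3a genes, for coding sequences below the diagonal and for the 250 bases upstream of the start above it, with Cyp3a57 as the non-member. Cyp3a25, Cyp3a59 and Cyp3a57 form a block apart from the block of Cyp3a11, Cyp3a44, Cyp3a41a, Cyp3a41b and Cyp3a16, and Cyp3a13 stands alone.

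How far the counts can be split between near-identical members was described for single reads, although the libraries were read as paired ends. The measure was the share of 50-base windows of each main transcript that no transcript of another annotated gene holds. It was 100% for Cyp3a13, 89.3% for Cyp3a16, 85.2% for Cyp3a11, 73.6% for Cyp3a44, 73.2% for Cyp3a25 and 72.0% for Cyp3a59. Cyp3a25 shares 488 of its 1951 windows with Cyp3a59. Only 28 of 2011 windows of Cyp3a41a and 131 of 2015 of Cyp3a41b are unique, so the counts of this pair are uncertain one by one. How shared reads were counted is not given in the sources used here.

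Cyp3a25 and Cyp3a59 were lower in the livers of AL/NP mice than in those of controls, with no overlap between the groups, while the other 6 members had log2 fold changes between 0.07 and 0.47. All 8 members passed the filter on low counts, so none was lost from the fit. None of the 8 passed an adjusted p of 0.05 by the quasi-likelihood test of edgeR, which called 0.0816% of 15939 genes tested. At an unadjusted p under 0.05, 2 of 8 members were lower, against 10.3% of all genes, and 0 were higher, against 9.37%. DESeq2, run as an alternative, called the same 2 members, both lower, against 5.56% of the genes it tested in either direction. The groups did not overlap in 2 members lower with AL/NP, against 15.0% of all genes, and in 1 member higher, against 14.5%.

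Cyp3a25, an adult hepatic member of the subfamily, had 74.6, 95.5 and 82.0 CPM in AL/NP livers, against 161, 196 and 322 CPM in control livers. Every AL/NP value lay below every control value, and control replicate 3 was the highest of all. The means were 84.0 ± 10.6 CPM in AL/NP livers and 226 ± 84.5 CPM in control livers (SD, n = 3 each), a log2 fold change of -1.43 (SE 0.260), and the adjusted p was 0.0903 by edgeR and 3.2e-05 by DESeq2. The edgeR p ranked 74 among the 15939 genes tested.

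Cyp3a59, the head-to-head neighbour, had 5.25, 11.4 and 11.3 CPM in AL/NP livers, against 21.9, 30.6 and 55.2 CPM in control livers. The groups again did not overlap, AL/NP replicate 1 was the lowest library and control replicate 3 the highest. Its mean was 9.34 ± 3.54 CPM in AL/NP livers and 35.9 ± 17.3 CPM in control livers (SD, n = 3 each), with a log2 fold change of -1.94 (SE 0.399) and an adjusted p of 0.105 by edgeR and 4.8e-05 by DESeq2. Since 479 of 1941 windows of Cyp3a59 are also in Cyp3a25, the values of the pair are not fully independent. Leaving out control replicate 3 gave -1.09 for Cyp3a25 (adjusted p = 0.0629, edgeR) and -1.49 for Cyp3a59 (adjusted p = 0.113, edgeR).

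Cyp3a57, the non-member that belongs to the same set by sequence, had 13, 13 and 15 counts in AL/NP livers, against 15, 26 and 32 counts in control livers. The groups overlapped by scaled level, with a log2 fold change of -0.78 (SE 0.408, adjusted p = 0.310, edgeR).

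**Figure D2:**
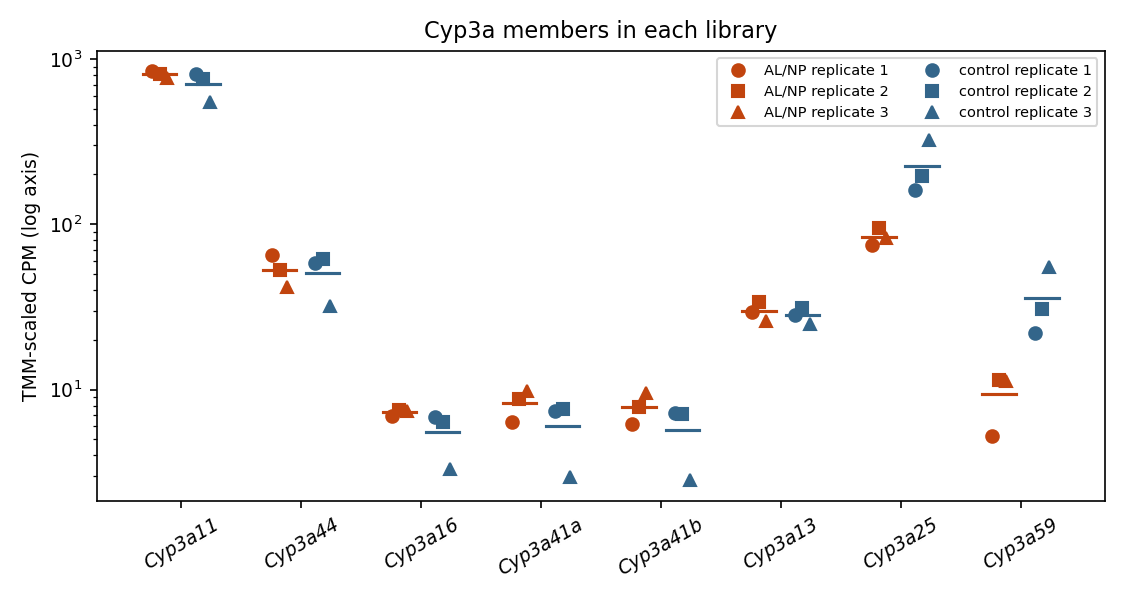
TMM-scaled CPM of each Cyp3a member (log axis) in AL/NP libraries, left of each pair, and control libraries, right, with symbols for replicates 1 to 3 and a bar at the group mean. Cyp3a25 at 74.6 to 95.5 CPM with AL/NP lies below its control range of 161 to 322 CPM, and Cyp3a59 likewise, while the other members lie close together or overlap.

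Cyp3a11, the main drug- and steroid-oxidising Cyp3a enzyme of the adult mouse liver and a standard PXR target, had 843, 807 and 771 CPM in AL/NP livers, against 807, 754 and 548 CPM in control livers. The groups overlapped, and control replicate 3 was the lowest. The log2 fold change was 0.20 (SE 0.190, adjusted p = 0.571, edgeR), which was 0.04 without control replicate 3.

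Cyp3a44, a female-predominant member in mice, had 65.0, 52.6 and 41.5 CPM in AL/NP livers, against 58.4, 61.6 and 31.96 CPM in control livers. These groups overlapped almost fully, and the log2 fold change was 0.07 (SE 0.265, adjusted p = 0.908, edgeR). Its sign was negative when either AL/NP replicate 1 (-0.11) or control replicate 3 (-0.18) was left out.

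Cyp3a41a and Cyp3a41b, copies of a gene expressed mainly in female livers, were summed because their reads can hardly be told apart. Their counts were nearly equal, at 184 and 178 in AL/NP replicate 1 and 95 and 91 in control replicate 3. How reads that match both copies were counted is not given. If they were counted at each copy, the sum holds the same reads more than once. The sum had 12.6, 16.6 and 19.3 CPM in AL/NP livers, against 14.6, 14.8 and 5.78 CPM in control livers. Control replicate 3 was far below the other 5 libraries, and the groups otherwise overlapped. The log2 fold change was 0.47 (SE 0.333, adjusted p = 0.444, edgeR), with 0.47 for Cyp3a41a and 0.46 for Cyp3a41b taken alone. With control replicate 3 left out, Cyp3a41a and Cyp3a41b each had a log2 fold change of 0.14.

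Cyp3a16, a member known from fetal and young livers, had 6.88, 7.51 and 7.43 CPM in AL/NP livers, against 6.83, 6.38 and 3.29 CPM in control livers. The groups did not overlap, but the lowest AL/NP value and the highest control value were nearly equal. The log2 fold change was 0.40 (SE 0.272, adjusted p = 0.420, edgeR), and it was 0.14 without control replicate 3.

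Cyp3a13, which lies outside the cluster and is also expressed in the intestine, had 29.3, 34.0 and 26.1 CPM in AL/NP livers, against 28.1, 31.3 and 24.8 CPM in control livers. Its groups overlapped throughout, with a log2 fold change of 0.08 (SE 0.157, adjusted p = 0.788, edgeR). Of the members it had the smallest SE.

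Control replicate 3 thus held the highest level of Cyp3a25 and Cyp3a59 and the lowest level of the other 6 members among the 6 libraries. It also had the largest mitochondrial share. With mitochondrially encoded genes left out of the fit, Cyp3a25, Cyp3a59 and Cyp3a11 had log2 fold changes of -1.43, -1.94 and 0.20, as with them. That fit left out only genes with symbols starting with mt- and kept any nuclear copies of them. Leaving out genes can move the values of others only through the scaling and the shared spread. The part of mitochondrial content in the Cyp3a levels was therefore not tested. Over all 8 members, 6 log2 fold changes were above 0 and 2 below, with a median of 0.14, against -0.00025 over all genes tested.

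Summed over the 8 members, the level was 1037, 1025 and 958 CPM in AL/NP livers, against 1098, 1095 and 991 CPM in control livers. The groups overlapped, with a difference of -0.08 on the log2 scale (exact two-sided permutation test over 3 against 3 libraries, p = 0.3, where 0.1 is the smallest possible). With library totals in place of TMM scaling, which moved the median of all genes by 0.13, the difference was 0.06. Without Cyp3a11 the summed level was 193.5, 217.6 and 187.6 CPM in AL/NP livers, against 290.7, 340.5 and 442.6 CPM in control livers, with no overlap. That difference, -0.84 on the log2 scale, was carried by Cyp3a25 and Cyp3a59. The other 5 members together had 113.7, 110.7 and 94.3 CPM in AL/NP livers, against 107.9, 114.0 and 65.8 CPM in control livers, which overlapped.

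The make-up of the family's counts was then compared within libraries. Cyp3a11 made up 81.3%, 78.8% and 80.4% of Cyp3a counts in AL/NP livers, against 73.5%, 68.9% and 55.3% in control livers. Cyp3a25 made up 7.19%, 9.32% and 8.56% in AL/NP livers, against 14.7%, 17.9% and 32.4% in control livers. Cyp3a59 made up 0.506%, 1.12% and 1.18% in AL/NP livers, against 2.00%, 2.80% and 5.57% in control livers. Cyp3a16 made up 0.664%, 0.733% and 0.775% in AL/NP livers, against 0.622%, 0.583% and 0.332% in control livers. None of these 4 shares overlapped between the groups, and each had the smallest exact permutation p the design allows, 0.1 (two-sided), or 0.267 after Benjamini-Hochberg adjustment over 16 shares and ratios. These shares do not depend on the scaling between libraries, but they sum to 100%, so the higher share of Cyp3a11 (by 14.3 points) and the lower share of Cyp3a25 (-13.3 points) are not separate results.

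Set against Cyp3a11 in the same library, Cyp3a25 stood at a log2 ratio of -3.50, -3.08 and -3.23 in AL/NP livers, against -2.33, -1.95 and -0.77 in control livers. The mean difference was -1.59 for Cyp3a25 and -2.14 for Cyp3a59 (exact two-sided permutation p = 0.1 each, the smallest possible). Cyp3a59 against Cyp3a25 gave -3.83, -3.06 and -2.86 in AL/NP livers, against -2.88, -2.68 and -2.54 in control livers, which overlapped (difference -0.55, exact permutation p = 0.2). Against Cyp3a11, the ratios of Cyp3a13, Cyp3a16, Cyp3a41a, Cyp3a41b and Cyp3a44 had exact permutation p-values of 0.3 to 0.6.

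**Figure D3:**
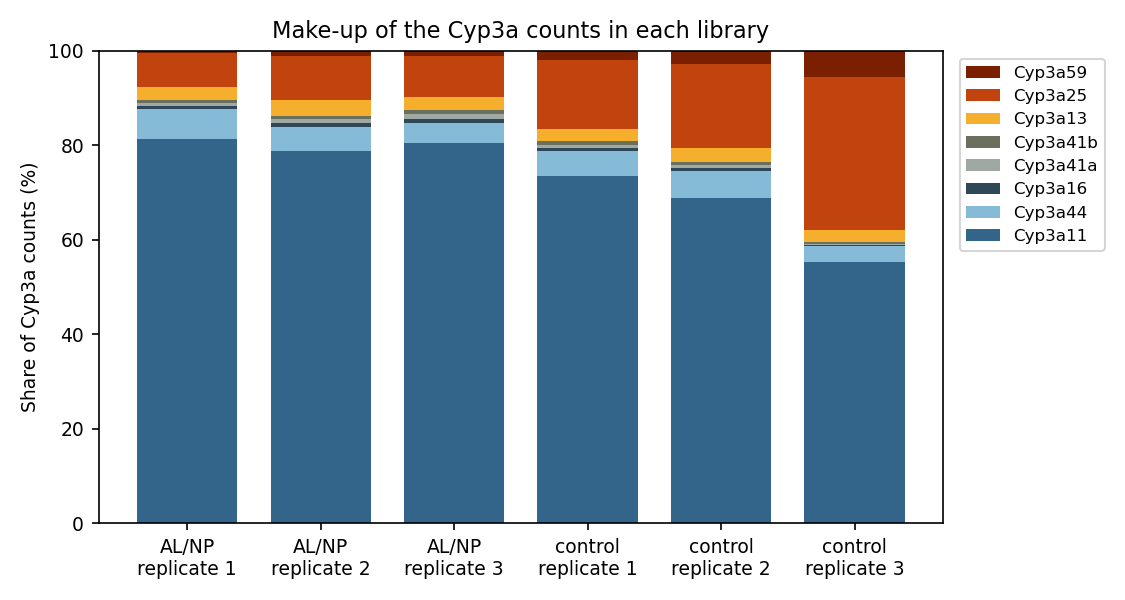
Share of the counts of all 8 Cyp3a members (%, stacked to 100) in each library, with the AL/NP libraries on the left and the controls on the right. Cyp3a25 takes 7.19% to 9.32% with AL/NP and 14.7% to 32.4% in controls, while Cyp3a11 takes 78.8% to 81.3% with AL/NP and 55.3% to 73.5% in controls.

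Per kilobase of the main coding transcript, Cyp3a11 led both groups, at 344 ± 15.5 CPM per kb in AL/NP livers and 300 ± 58.4 CPM per kb in controls (SD, n = 3 each). Cyp3a25 followed at 42.0 ± 5.31 CPM per kb with AL/NP and 113 ± 42.2 in controls. Cyp3a44 came next, at 27.0 ± 6.001 CPM per kb with AL/NP and 25.8 ± 8.29 in controls. With AL/NP, Cyp3a13 at 10.1 ± 1.34 CPM per kb stood above Cyp3a59 at 4.69 ± 1.78. In controls this order was turned round, with Cyp3a59 at 18.1 ± 8.67 CPM per kb and Cyp3a13 at 9.50 ± 1.10, and their libraries did not overlap in either group. Among controls, Cyp3a44 and Cyp3a59 overlapped, at 16.3 to 31.4 and 11.01 to 27.7 CPM per kb. The lowest 3, Cyp3a16, Cyp3a41a and Cyp3a41b, had between 3.81 and 4.21 CPM per kb with AL/NP and between 2.76 and 3.18 in controls, within each other's spread. With AL/NP, Cyp3a59 overlapped these 3 and had the lowest value of the family in AL/NP replicate 1, at 2.64 CPM per kb. Only 28 of 2011 windows of Cyp3a41a and 131 of 2015 of Cyp3a41b are unique. Since how shared reads were counted is not given, the levels per kilobase of this pair and their place in the order are uncertain. Over merged exons, which add a long alternative part to Cyp3a11, its mean was 158 CPM per kb with AL/NP and 138 in controls. It remained first by mean, but in controls it then overlapped Cyp3a25, at 77.2, 94.0 and 154 CPM per kb (mean 109). In control replicate 3, Cyp3a25 at 154 CPM per kb stood above Cyp3a11 at 108.

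The genes whose levels ran most like those of a member were found by the root-mean-square difference of centred log2 CPM over the 6 libraries, among 13713 genes with a mean of at least 1 CPM. For Cyp3a25 these were Gm19705 (0.105), the transporter Abcc6 (0.129) and the phosphodiesterase Pde4c (0.145). For Cyp3a59 they were 1810046K07Rik (0.192), the bile salt transporter subunit Slc51b (0.209) and the sterol transporter Abcg5 (0.238). For Cyp3a16 they were Gm14150 (0.0425), Prep (0.0435) and Rpap3 (0.0436).

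Genes whose products feed P450 enzymes differed in direction. Of 13 genes of electron transfer and haem supply, 8 were higher and 5 lower with AL/NP (median log2 fold change 0.19), with none called. At an unadjusted p under 0.05, 4 were higher, against 9.37% of all genes, and 2 lower, against 10.3%. Por had 189, 173 and 168 CPM in AL/NP livers, against 133, 125 and 114 CPM in control livers (log2 fold change 0.51, SE 0.146, adjusted p = 0.147, edgeR). Cyb5a had 358, 436 and 481 CPM in AL/NP livers, against 722, 731 and 678 CPM in control livers (log2 fold change -0.74, SE 0.171, adjusted p = 0.121, edgeR). Neither gene's groups overlapped, which held for 14.5% of all genes with AL/NP higher and for 15.0% with AL/NP lower. The haem synthesis enzyme Alas1 had a log2 fold change of 0.60 (adjusted p = 0.183, edgeR).

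Of 26 tested regulators of Cyp3a transcription, 8 were higher and 18 lower (median -0.25), with none called. At an unadjusted p under 0.05, 5 were lower, against 10.3% of all genes, and 0 higher, against 9.37%. Nr1i3 (CAR) had 16.8, 34.0 and 65.8 CPM in AL/NP livers, against 151, 124 and 111 CPM in control livers (log2 fold change -1.73, SE 0.430, adjusted p = 0.133, edgeR). Nr1i2 (PXR) had 37.1, 33.1 and 36.7 CPM in AL/NP livers, against 42.1, 39.4 and 79.7 CPM in control livers (log2 fold change -0.59, adjusted p = 0.254, edgeR). Neither receptor overlapped between the groups, which held for 15.0% of all genes with AL/NP lower. Hnf4a overlapped (-0.32, adjusted p = 0.391, edgeR), and Ppara, Cux2 and Nr0b2 had log2 fold changes of -0.75, -1.98 and -1.03 (adjusted p = 0.147 to 0.166, edgeR). The value of Cux2 was -0.93 (adjusted p = 0.189, edgeR) without control replicate 3, whose 10.9 CPM compared with 2.27 and 2.84 CPM in the other controls. That of Nr1i3 was -2.34 (adjusted p = 0.146, edgeR) without AL/NP replicate 3. Nr0b2 had 96.7 CPM in control replicate 1, against 41.9 and 40.4 CPM in the other controls.

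Among 26 PXR and CAR targets outside Cyp3a, 11 were higher and 15 lower (median -0.26), with none called. At an unadjusted p under 0.05, 2 were higher, against 9.37% of all genes, and 8 lower, against 10.3%. The transporter Abcc4 had 4.38, 4.35 and 4.24 CPM in AL/NP livers, against 9.16, 10.2 and 11.2 CPM in control livers (log2 fold change -1.24, SE 0.170, adjusted p = 0.0579, edgeR). Gstm2 and Slco1a4 had log2 fold changes of -0.99 and -1.42 (adjusted p = 0.121 and 0.147, edgeR), and the groups overlapped for Slco1a4. The 2 higher genes were Por and Alas1, which are also in the list of electron transfer and haem supply. Cyp2b10 overlapped between the groups, with a log2 fold change of -0.03 (adjusted p = 0.965, edgeR).

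**Figure D4:**
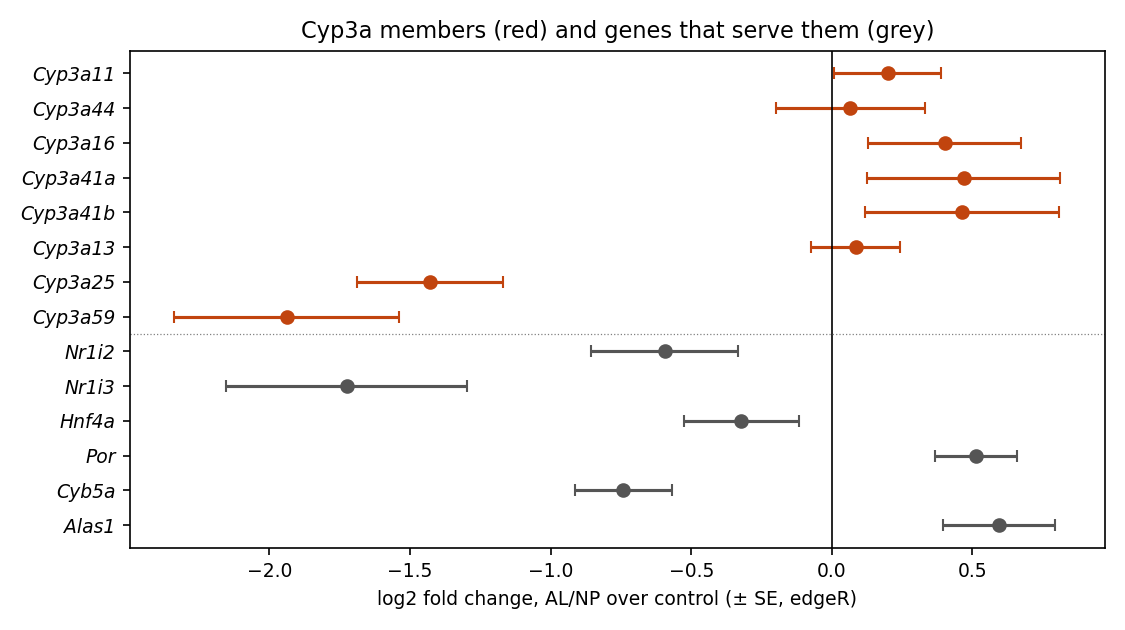
Log2 fold change of AL/NP over control with its SE (edgeR, n = 3 each) for the 8 Cyp3a members in red and for Nr1i2, Nr1i3, Hnf4a, Por, Cyb5a and Alas1 in grey. Cyp3a25 at -1.43 and Cyp3a59 at -1.94 stand left of 0, the other 6 members lie between 0.07 and 0.47, and Nr1i3 at -1.73 is the lowest of these 6 grey genes.

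Female-biased liver genes outside the family were lower in 14 of 17 tested (median -0.60). At an unadjusted p under 0.05, 8 were lower, against 10.3% of all genes. The female-predominant members Cyp3a41a, Cyp3a41b and Cyp3a44 had log2 fold changes of 0.47, 0.46 and 0.07. Hao2, Nipal1 and Cyp2a4 had log2 fold changes of -1.51, -1.07 and -0.98 (adjusted p = 0.0928 to 0.133, edgeR). Of 14 male-biased genes tested, 9 were higher and 5 lower (median 0.14), with none called.

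Inflammatory genes and markers of other cell types also differed between the groups. Of 30 acute phase genes, 27 were higher with AL/NP (median 0.91) and 4 were called, against 0.0816% of all genes. These 4 were the plasma proteins Orm2, Orm3, Saa1 and Saa3, all higher. The summed level of the 30 genes was 37970 to 41530 CPM in AL/NP livers and 18850 to 24840 CPM in controls. Of 14 macrophage and Kupffer cell markers, 13 were higher (median 1.04), 10 of them at an unadjusted p under 0.05, against 9.37% of all genes. Their sums were 509 to 883 CPM in AL/NP livers and 259 to 422 CPM in controls. All 8 tested neutrophil markers of 10 were higher (median 1.39). Most of the summed level of the 10 was Lcn2, an acute phase gene as well, at 449.7 to 884.8 CPM in AL/NP livers and 179.7 to 272.4 CPM in controls. Without Lcn2 the sums were 35.8 to 79.5 CPM in AL/NP livers and 19.4 to 35.04 CPM in controls, which nearly met. Hepatocyte markers were lower in 11 of 16 (median -0.27), and their zonal lists were lower in 14 of 22 pericentral genes (median -0.29) and 14 of 18 periportal genes (median -0.50), with none called in any of these 5 marker lists. Markers of stellate, cholangiocyte, endothelial and lymphocyte cells had 0 called. At an unadjusted p under 0.05 there were 1 of 11, 1 of 7, 0 of 8 and 1 of 9 tested. Over all genes, 9.37% were higher and 10.3% lower at that threshold. In the same libraries, Cyp3a11 averaged 807 ± 36.2 CPM in AL/NP livers and 703 ± 137 CPM in control livers (SD, n = 3 each). Its groups overlapped, and its log2 fold change was 0.04 without control replicate 3. The part of inflammatory genes and of other cell types in the levels of the Cyp3a members was not tested.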

How the data were processed

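Liver RNA of 6 libraries, 3 AL/NP and 3 control, was compared. The deposited values are raw counts for each Ensembl gene, whole numbers that the authors did not normalize. STAR 2.6.1a, featureCounts, DESeq2 1.26.0 and GRCm38 are named in the submitters' processing notes; the strand setting and the handling of reads with several matches are not given in the sources used here. Per the labels, libraries were stranded, poly(A)-selected and read as paired ends.

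Counts were fitted with edgeR 4.0.16 in R 4.3.3 (robust quasi-likelihood test, TMM scaling, filterByExpr with a minimum count of 10), leaving 15939 genes over which p-values were adjusted by Benjamini-Hochberg, with a threshold of 0.05. Standard errors were derived from each log2 fold change and the root of its F statistic. A level of 3 counts equals 0.0826 to 0.104 CPM, which covers counting error only. DESeq2 1.42.0, limma-voom (limma 3.58.1), other scalings and filters, a replicate block and each library left out were alternatives. Exact permutation tests used SciPy 1.17.1, and identities used Biopython 1.88 global alignments. RefSeq promoters matched all 8 members and Cyp3a57. No 2 libraries were duplicates (chi-square at least 30.6 per degree of freedom).

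The members and lists were chosen with earlier results of these data known. Named genes are all members, the 4 members with the smallest p of the lists described, any called gene of those lists, fixed regulators and partners, and for 3 members the 3 genes most alike. For 2 of the genes so chosen, no result is reported here.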

Additional observations from a re-analysis of the deposited data

How the results depend on the processing

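Cyp3a25 and Cyp3a59 were lower with AL/NP, at an unadjusted p under 0.05, under each of the 15 alternatives. Their log2 fold changes ranged from -1.62 to -1.09 for Cyp3a25 and from -2.20 to -1.49 for Cyp3a59, the leave-out values included. The number of members called was 0 with edgeR as reported, 1 with no filter (Cyp3a25, adjusted p = 1.0e-05), 1 with the replicate block (Cyp3a59, log2 fold change -1.92, adjusted p = 0.0436), 2 with DESeq2, and 0 in each fit with 1 library left out. Over all genes, 13 were called, against 0 with library totals, 0 with at least 50 counts in 3 libraries, 0 without robust estimation, 747 with no filter, 23 with the replicate block and 878 with DESeq2. The range was 0 to 4 with 1 library left out. In the settings with 0 calls the unadjusted count was 2254, 2786 and 3133, and 2229 to 3022 over the leave-out fits. Same-numbered libraries had correlations of -0.05 to 0.08, within the range of differently numbered ones, -0.147 to 0.0974. With 3 libraries per group, these values cannot settle whether the numbers pair the samples. The sum over the family was 0.063 with library totals, against -0.076 as reported, where the median of all genes moved by 0.133. Cyp3a44 turned negative when AL/NP replicate 1 (-0.107) or control replicate 3 (-0.181) was left out, within a leave-out range of -0.18 to 0.22, and Cyp3a13 without AL/NP replicate 2 (-0.0221), within -0.0221 to 0.171. The cause was not tested. The biological coefficient of variation was 23.3%.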

Other observations

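Other P450 families were described beside Cyp3a. Of 37 tested Cyp2 genes, 31 were lower with AL/NP and 6 higher (median log2 fold change -0.35), with none called. At an unadjusted p under 0.05, 10 were lower, against 10.3% of all genes, and 0 higher, against 9.37%. The groups did not overlap, with AL/NP lower, in 10 of the 37 Cyp2 genes, against 15.0% of all genes. These were all 4 tested Cyp2a genes, 2 of 13 Cyp2c, 2 of 4 Cyp2j, 1 of 8 Cyp2d and 1 of 3 Cyp2b. The Cyp2a genes, which hydroxylate steroids and coumarin and were singled out after their values were seen, had a median of -0.95, and their summed level was 530 to 849 CPM in AL/NP livers and 1198 to 1265 CPM in controls. The smallest p-values among Cyp2 genes were those of Cyp2a22 (-0.95, adjusted p = 0.108, edgeR), Cyp2c40 (-0.55, adjusted p = 0.126, edgeR), Cyp2c68 (-0.65, adjusted p = 0.126, edgeR) and Cyp2a4 (-0.98, adjusted p = 0.133, edgeR). Of 13 tested Cyp4 genes, 5 were higher and 8 lower (median -0.19), with none called. Cyp3a11 had a log2 fold change of 0.20, with groups that overlapped, and of 0.04 without control replicate 3. These subfamilies hold near-identical copies, and how reads that match several copies were counted is not given in the sources used here.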
